A study of Mus musculus with 5 samples.

Results

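The transcripts of 9 heat shock chaperones were measured in mouse regulatory T (Treg) cells with an intact, a deleted or a protease-dead Malt1 gene. The 9 genes, taken by symbol, were Hspa8, Hspa1a, Hspa1b, Dnaja1, Dnajb1, Hsph1, Hsp90aa1, Hspd1 and Hspe1. All 9 were present among the 38130 entries of each library, and 8 of them, all but Hspa1a, passed the filter for testing, a mean level of at least 1 over the 5 libraries. In the 2 libraries with protease-dead Malt1, 6 of the 9 genes lay below both wild-type libraries, where 16.8% of all tested genes did: Hspa8, Hspa1b, Dnajb1, Hsph1, Hsp90aa1 and Hspe1. In the library with deleted Malt1, the stress-inducible Hspa1b and Hspa1a were at their highest, as were 24.6% of all tested genes. No tested member passed an adjusted p of 0.05 in any comparison that was tested, and the wild-type libraries were not tested against each other.

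The cells were CD4+YFP+ Treg cells sorted from C57BL/6 mice. Every group, the controls included, carries a Foxp3-driven Cre joined to a yellow fluorescent protein (YFP), which marks cells that express Foxp3, the defining transcription factor of Treg cells, and recombines floxed alleles in them. There were 4 groups. Controls with intact Malt1 (wild type, WT) gave 1 library at the age of 21 days and 1 at 6 weeks. The mutants were mice homozygous for floxed Malt1 at 21 days, in which the gene is deleted in Treg cells (KO, 1 library), and mice with a floxed and a C472A allele of Malt1 at 6 weeks (KI, 2 libraries). The C472A allele is described by the labels as inhibited in protease activity, and after recombination of the floxed allele it is the remaining one in these Treg cells. Malt1 encodes a paracaspase that links antigen receptors to NF-kB. Whether each library is a different mouse is not stated in the labels, and the spread behind the p-values may then be technical.

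Heat shock proteins are chaperones, which bind unfolded or partly folded proteins and keep them from aggregating. In the cytosol, HSP40 proteins (the Dnaj genes) hand a client to an HSP70 and stimulate its ATP hydrolysis, and HSP110 exchanges the nucleotide so that the client is released. HSP70 passes some clients, such as kinases and steroid receptors, on to HSP90. In mitochondria, HSP60 (Hspd1) forms a folding chamber and HSP10 (Hspe1) is its lid. Many of these genes are induced by heat shock factor 1 (Hsf1), which binds heat shock elements, arrays of the unit nGAAn in alternating orientation, and T cells also raise chaperone transcripts when they are activated.

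The promoters are shown first because the 2 most stress-inducible members carry almost the same one. Sequences are from RefSeq on build GRCm38.p6, where 7 of the 9 members matched, with 12 start windows; Hsp90aa1 and Hspa8 had no entry. A window runs from 250 bases before a start to 50 bases after it. The 250 bases before the start of Hspa1a (chr17:34972157-34972406, minus strand) and of Hspa1b (chr17:34959239-34959488, minus strand) are printed 5′ to 3′, with capitals at the match to GAANNTTC, which is 2 facing units of a heat shock element and reads the same on both strands.
Hspa1a: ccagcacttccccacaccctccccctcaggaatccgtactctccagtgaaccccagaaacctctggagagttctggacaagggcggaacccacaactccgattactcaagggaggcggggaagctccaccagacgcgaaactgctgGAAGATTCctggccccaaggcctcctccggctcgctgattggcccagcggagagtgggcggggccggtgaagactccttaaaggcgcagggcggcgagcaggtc
Hspa1b: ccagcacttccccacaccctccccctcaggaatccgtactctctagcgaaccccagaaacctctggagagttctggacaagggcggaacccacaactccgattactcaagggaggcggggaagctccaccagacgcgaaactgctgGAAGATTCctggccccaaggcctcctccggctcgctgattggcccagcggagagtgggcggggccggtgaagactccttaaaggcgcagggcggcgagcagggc
The pair differed at 3 of 250 bases, C44T, T47C and T249G, with the Hspa1a base first and positions counted from 1 at the 5′ end. Their coding sequences were identical at 99.4% of 1926 aligned positions, so reads can fit either gene and the split between Hspa1a and Hspa1b is uncertain.

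Matches at 4 other members are shown because the members differ in how many units they carry. Each site is shown as 30 bases, with capitals at matches to GAANNTTC and to the opposite arrangement TTCNNGAA, which may overlap. The Hspe1 and Hspd1 site (chr1:55088053-55088082, plus strand) lies before the start of Hspe1 and before a RefSeq start of Hspd1, within the annotated Hspd1 locus, the Hsph1 site (chr5:149636279-149636308, minus strand) lies just after a RefSeq start, and the Dnaja1 site (chr4:40722333-40722362, plus strand) lies before a RefSeq start, within the annotated Dnaja1 locus.
Hspe1 and Hspd1: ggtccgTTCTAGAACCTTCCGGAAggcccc
Hsph1: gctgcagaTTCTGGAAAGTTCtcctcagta
Dnaja1: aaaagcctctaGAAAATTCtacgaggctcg
A match of 2 units (GAANNTTC or TTCNNGAA, either strand) was present in 7 of the 12 member windows and in 15.1% of all 32851 windows. A match of 3 units (GAANNTTCNNGAA or its reverse complement TTCNNGAANNTTC), which contains matches of 2 units, was present in 4 of the 12 member windows and in 0.603% of all windows. These 4 windows belong to Hspd1, Hspe1 and Hsph1. The Hspd1 and Hspe1 matches are the same bases, and so are the matches in both Hsph1 windows, which overlap. The 4 windows are therefore not 4 separate sites. Dnajb1 had no match in its windows, which says only that these letters are not there.

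Levels are given as scaled FPKM, the authors' fragments per kilobase of transcript and mapped fragments (FPKM) divided by a factor that aligns the libraries, and they are normalized by transcript length. FPKM hold no counts, and the depth estimated from their bounds was 6.88 and 7.79 M fragments in WT at 6 weeks and KO, against 24.5 to 28.1 M in WT at 21 days and both KI libraries. Across the 11296 genes tested, KI correlated more closely with WT at 21 days (Pearson's r of 0.952 and 0.943) than with WT of its own age (0.887 and 0.901), and KO correlated more closely with WT at 6 weeks (0.939) than with WT at 21 days (0.885). Depth therefore cannot be told apart from genotype when libraries of matched age are compared, and age cannot be told apart from genotype when libraries of like depth are compared, so each mutant is set against both WT libraries. Malt1 itself was at 27.0 in WT at 21 days, 15.2 in WT at 6 weeks, 17.6 in KO, and 55.9 and 37.8 in KI, so its gene level does not separate KO from WT at 6 weeks and is no check of the KO label. The Treg markers were present in every library, but at unequal levels. Foxp3 was at 70.7 in WT at 21 days, 39.5 in WT at 6 weeks, 30.5 in KO, and 70.1 and 73.6 in KI. Ctla4 was at 396, 148, 118, 412 and 246 in the same order, and Ikzf2 at 68.0, 36.3, 15.4, 62.6 and 103.6. All 3 were lower in WT at 6 weeks and KO, the libraries of lower depth, than in the other 3. The other listed Treg and CD4 T cell markers were split. Il2ra was also lower in these libraries, whereas Cd4, Cd3g and Cd3e were higher in them. Cd4 was at 165, 197, 213, 137 and 141 in the same order.

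**Figure D1:**
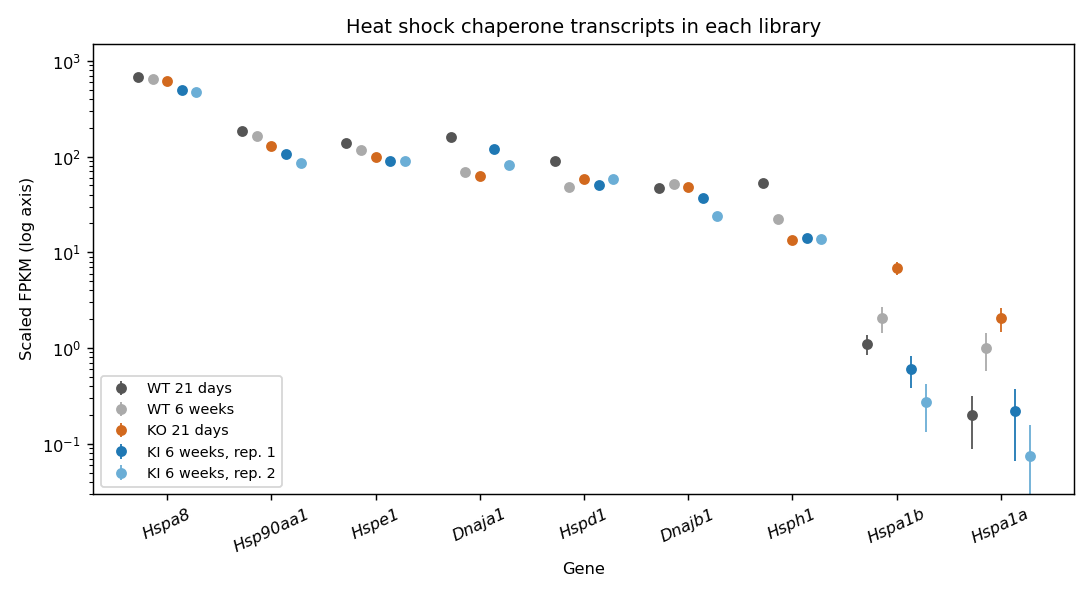
Scaled FPKM of the 9 heat shock chaperones in each of the 5 libraries, on a log axis, with genes ordered by their mean. Bars are the authors' lower and upper bounds within a library, and the lower bound of Hspa1a in KI replicate 2 is 0, below the axis; Hspa8 leads at 468 to 682, while Hspa1b and Hspa1a lie at 6.81 or less and peak in KO.

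The HSP70 that does the everyday work, Hspa8 (HSC70; ENSMUSG00000015656, GRCm38 chr9:40800984-40805200), was the most abundant member. It was at 682 in WT at 21 days, 651 in WT at 6 weeks, 622 in KO, and 501 and 468 in KI (484 ± 23.8, SD, n = 2). Both KI libraries were lower than the other 3, and the range from highest to lowest was 1.46-fold. On the scale log2(scaled FPKM + 1), used for every difference below, KI lay at -0.43 from WT at 6 weeks and at -0.49 from WT at 21 days.

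The inducible HSP70 genes Hspa1b (ENSMUSG00000090877, chr17:34956436-34959238) and Hspa1a (ENSMUSG00000091971, chr17:34969199-34972154) are kept near silent in unstressed cells. Hspa1b was at 1.11 in WT at 21 days, 2.06 in WT at 6 weeks, 6.81 in KO, and 0.602 and 0.276 in KI (0.439 ± 0.231, SD, n = 2). Hspa1a was at 0.201, 1.01, 2.06, 0.219 and 0.0736 in the same order. Both genes were highest in KO and next highest in WT at 6 weeks, which are also the libraries of lower depth. The authors' bounds for Hspa1b did not overlap between KO (5.73 to 7.89), WT at 6 weeks (1.44 to 2.68), WT at 21 days (0.846 to 1.37) and either KI library (0.381 to 0.824, and 0.132 to 0.419). Such bounds reflect the reads of each library alone and not the spread between mice. For Hspa1a the lower bound in KI replicate 2 was 0, and its KI and WT 21-day bounds overlapped. Hspa8 exceeded Hspa1b by 614.5-fold in WT at 21 days, 317-fold in WT at 6 weeks and 91.3-fold in KO, so most of the cytosolic HSP70 transcript among these 3 genes was Hspa8 in each of these libraries.

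The HSP40 cochaperones, which deliver clients to HSP70, did not share a pattern. Dnaja1 (ENSMUSG00000028410, chr4:40722150-40737149), a type I HSP40, was at 162 in WT at 21 days, 68.7 in WT at 6 weeks, 62.2 in KO, and 119 and 82.5 in KI (101 ± 25.9, SD, n = 2). The WT libraries stood on either side of KI, with KI above WT at 6 weeks and below WT at 21 days. Dnajb1 (ENSMUSG00000005483, chr8:83608175-83611902), the stress-inducible type II HSP40, was at 47.5 and 51.7 in WT at 21 days and 6 weeks, 48.1 in KO, and 36.6 and 24.0 in KI (30.3 ± 8.92, SD, n = 2). The 3 libraries without the C472A allele lay close together and both KI libraries lay below them, although the KI libraries differed from each other by more than those 3 did.

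The HSP110 gene Hsph1 (ENSMUSG00000029657, chr5:149614287-149636376), the nucleotide exchange factor of HSP70, had the widest range of the more abundant members, 3.95-fold. It was at 52.6 in WT at 21 days, 22.2 in WT at 6 weeks, 13.3 in KO, and 14.1 and 13.8 in KI (13.9 ± 0.227, SD, n = 2). The 3 mutant libraries were close to one another and below both WT libraries, and the WT libraries were themselves far apart.

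The inducible cytosolic HSP90 gene, Hsp90aa1 (ENSMUSG00000021270, chr12:110690605-110702728), was at 185 in WT at 21 days, 164 in WT at 6 weeks, 128 in KO, and 105 and 84.7 in KI (95.0 ± 14.6, SD, n = 2). The 3 mutant libraries lay below both WT libraries, with KI lowest. Its constitutive partner Hsp90ab1 was at 545, 512, 500, 386 and 331 in the same order, and Hsp90aa1 stood at 0.339 and 0.320 of it in WT at 21 days and 6 weeks, 0.257 in KO, and 0.273 and 0.256 in KI. This ratio within a library does not depend on the scaling, and it was lower in each of the 3 mutant libraries than in both WT libraries.

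The mitochondrial chaperonin genes Hspe1 (ENSMUSG00000073676, chr1:55088132-55091307) and Hspd1 (ENSMUSG00000025980, chr1:55077835-55088243) are transcribed away from each other, and their annotated loci overlap by 112 bases, where reads cannot be told apart without strand. Hspe1 was at 138 in WT at 21 days, 118 in WT at 6 weeks, 99.97 in KO, and 90.7 and 89.8 in KI (90.3 ± 0.647, SD, n = 2). Hspd1 was at 90.1, 48.0 and 58.3 in WT at 21 days, WT at 6 weeks and KO, and at 50.6 and 58.5 in KI (54.6 ± 5.62, SD, n = 2). Hspe1 was lowest in KI, whereas the lowest Hspd1 value was that of WT at 6 weeks. The ratio of Hspe1 to Hspd1 was 1.53 in WT at 21 days, 2.47 in WT at 6 weeks, 1.71 in KO, and 1.79 and 1.53 in KI, so the lid and the chamber transcripts, which share the array printed above, did not keep one proportion.

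The comparison of KI with WT sets Treg cells with inhibited Malt1 protease activity, per the labels, against cells with intact Malt1. Malt1 protein was not measured. The C472A allele is the only one left in KI after recombination, so allele number and protease loss cannot be told apart. Against WT at 6 weeks, Hspa1b differed by -1.10 (SE 0.25, adjusted p = 0.436, limma), Hsp90aa1 by -0.79 (SE 0.27, adjusted p = 0.473), Dnajb1 by -0.78 (adjusted p = 0.509) and Hsph1 by -0.63 (SE 0.24, adjusted p = 0.482). Hspe1 lay at -0.39, Dnaja1 at 0.52 and Hspd1 at 0.18, and Hspd1 turned to -0.11 with FPKM as deposited. Hspa1a, not tested, lay at -0.81, and the sum of Hspa1a and Hspa1b, which does not rest on the split of their reads, lay at -1.38. The median was -0.53 over the 8 tested members and -0.63 over all 9, against -0.0045 over all genes tested. In both KI libraries 6 of the 8 were lower by any amount, where 38% of all genes were. None of the 8 passed 2-fold in both KI libraries, where 5.81% of all genes did. That count rests on the scale: Hspa1b passed with a pseudocount of 0.1, where its difference was -2.07, and Hspa1b and Hsp90aa1 passed with FPKM as deposited, against 4.06% and 4.82% of all genes downward. The limma adjusted p of the members was 0.436 to 0.775. Under that test 1 gene in all was called (0.00885%), while 1 of 8 members, Hspa1b, and 10.7% of all genes (4.97% as lower) had an unadjusted p under 0.05. Only the KI pair gives a spread here (1 residual degree of freedom), which the WT library is taken to share.

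**Figure D2:**
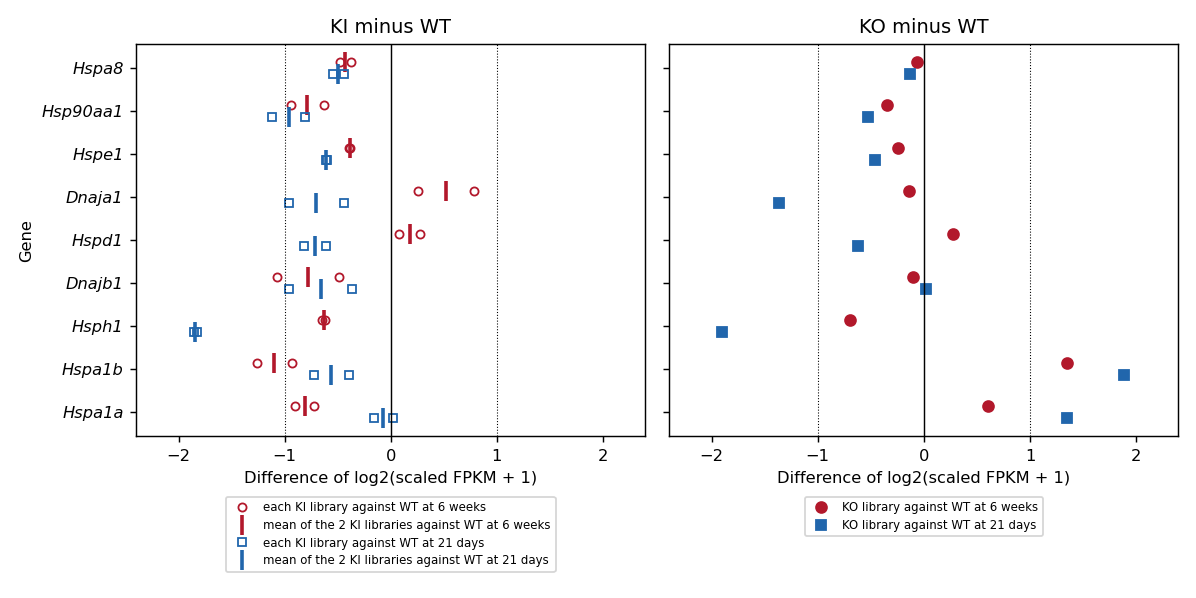
Difference of log2(scaled FPKM + 1) of each member in KI (left) and KO (right) from WT at 6 weeks (red circles) and WT at 21 days (blue squares), with open symbols for each KI library, upright bars for their mean and dotted lines at 2-fold. In KI all but Dnaja1, Hspd1 and Hspa1a lie left of 0 against both controls; in KO, Hspa1b and Hspa1a lie at 0.61 to 1.89 and Hsph1 at -1.90 and -0.69.

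Against WT at 21 days, whose depth is like that of KI, all 8 tested members were lower in both KI libraries, where 28.5% of all genes were. The same KI libraries enter both comparisons. Hsph1 differed by -1.84 (SE 0.23, adjusted p = 0.941, limma) and was the only member past 2-fold in both KI libraries, a size that 0.788% of all genes reached downward. Hsp90aa1 lay at -0.96, Hspd1 at -0.72, Dnaja1 at -0.70, Dnajb1 at -0.66, Hspe1 at -0.61 and Hspa1b at -0.56, or -1.24 with a pseudocount of 0.1. The median was -0.68 over the 8 members and 0 over all genes, and limma called 0 genes, with 3 of 8 members, each lower, and 2.12% of all genes (1.35% as lower) at an unadjusted p under 0.05. Hspa1a differed by -0.07, within the bounds of these libraries.

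With both WT libraries as 1 control group, 6 of 9 members had both KI libraries below both WT libraries and none had them above, where 16.8% of the tested genes lay below and 16.2% above. Hspa1b, one of the 6, passed the filter through its WT and KO values, since it was under 1 in both KI libraries. The limma difference over 2 KI and 2 WT libraries was -1.24 for Hsph1 (SE 0.43), -0.87 for Hsp90aa1 (SE 0.23), -0.83 for Hspa1b (SE 0.32) and -0.72 for Dnajb1 (SE 0.27). Hspe1 lay at -0.50 (SE 0.21), Hspa8 at -0.46, Hspd1 at -0.27 and Dnaja1 at -0.09. These 4 genes first named, of 8 tested members, were lower at an unadjusted p under 0.05, where 1.92% of all genes were, and none passed the threshold, with limma adjusted p values of 0.93 to 0.99 (1 gene in all passed, 0.00885%). The 6 members were the same 6 genes with FPKM as deposited and with upper-quartile scaling, where the share of all genes was 13.5% and 18.5%. Leaving out either KI library only loosens the rule, so it could not remove any of the 6. The share of all genes was then 32.7% or 33.7%. Of the 8 tested members 5 had their lowest value in KI replicate 2, as did 20.3% of all genes.

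KO against WT sets Treg cells with deleted Malt1, per the labels, against cells with intact Malt1. It has 1 library a side, so differences are given by size. Against WT at 21 days, Hspa1b was 6.13-fold higher in KO (1.89 on the log2 scale) and Hspa1a lay at 1.35, with their sum at 2.09. Hsph1 was 3.94-fold lower (-1.90) and Dnaja1 2.60-fold lower (-1.37). These 3 tested members were past 2-fold, as were 14.3% of all genes, 6.13% upward and 8.14% downward. With FPKM as deposited Dnaja1 lay at -0.98, which left Hspa1b and Hsph1 past 2-fold. Hspd1, Hsp90aa1 and Hspe1 lay at -0.62, -0.52 and -0.46, Dnajb1 at 0.02, and Hspa8 at -0.13, which turned to 0.25 with FPKM as deposited. A limma fit of the 4 group means, whose only replicates are the KI pair, called no member and gave adjusted p = 0.407 for Hsph1, 0.457 for Hspa1b and 0.466 for Dnaja1. Beside these differences, 3 of 7 Treg markers (Foxp3, Ctla4 and Ikzf2) were past 2-fold lower in KO than in WT at 21 days. Cd4, Cd3g and Cd3e were higher in KO by less than 2-fold, and the part of these markers was not tested.

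Against WT at 6 weeks, whose depth is like that of KO, Hspa1b was 3.31-fold higher in KO (1.35) and was the only tested member past 2-fold, as were 3.3% of all genes upward. Being past 2-fold higher in KO against both WT libraries held for 2.17% of all genes. Hspa1a lay at 0.61 (not tested), Hsph1 at -0.69, Hsp90aa1 at -0.35, Hspd1 at 0.27 and Hspe1 at -0.24. Dnaja1, Dnajb1 and Hspa8 were at -0.14, -0.10 and -0.07. Taking both controls, KO lay below both WT libraries for 5 of 8 tested members (Hspa8, Dnaja1, Hsph1, Hsp90aa1 and Hspe1), where 34.5% of all genes lay below, and above both for Hspa1b, where 34.5% lay above.

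The WT libraries differed among themselves, and 6 of 8 tested members had their highest value of all 5 libraries in WT at 21 days, as did 13.9% of all genes. From 21 days to 6 weeks Dnaja1 lay at -1.22, Hsph1 at -1.21 and Hspd1 at -0.89, and 2 of 8 tested members, Dnaja1 and Hsph1, were past 2-fold downward, as were 5.18% of all genes. With FPKM as deposited they lay at -0.84 and -0.83, and 0 of 8 were past 2-fold, against 2.92% of all genes downward. Hspa1b lay at 0.53, Hspa1a at 0.74 and Dnajb1 at 0.12. Hspe1, Hsp90aa1 and Hspa8 lay at -0.22, -0.17 and -0.07 and turned to 0.17, 0.22 and 0.32 with FPKM as deposited. Age, depth and library cannot be told apart here. By the authors' bounds, WT at 6 weeks lay below WT at 21 days for 5 of 9 members, above for 2 and overlapping for 2. The share of all genes was not computed for these bounds, so the count has nothing to be set against. Hspe1 and Hsp90aa1, both among those below, are genes that turned with FPKM as deposited.

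The surrounding chaperone network was described with lists of other genes, none of which had a gene called by limma in KI against both WT libraries. In the HSP90 system 6 of 11 tested genes (Hsp90ab1, Ahsa1, Stip1, Cacybp, Fkbp4 and Cdc37) had both KI libraries below both WT libraries and 1 (Ppid) had them above, against 16.8% and 16.2% of all genes, with a median difference of -0.47. Ahsa1, which activates the HSP90 ATPase, was at 63.7 and 50.3 in WT at 21 days and 6 weeks, 44.9 in KO, and 29.3 and 35.1 in KI. Stip1 (HOP), which bridges HSP70 and HSP90, was at 63.1, 38.1, 37.2, 25.7 and 33.1 in the same order. Both were lowest in the KI libraries. Fkbp5, an HSP90 cochaperone induced by glucocorticoids, went its own way, at 32.7, 16.8, 74.0, 44.9 and 16.0, highest in KO and unlike between the KI replicates. Chordc1, the other list gene besides Dnajb6 whose start window held a match of 3 units, was at 51.2, 27.9, 20.3, 22.6 and 32.0, with KI overlapping WT.

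**Figure D3:**
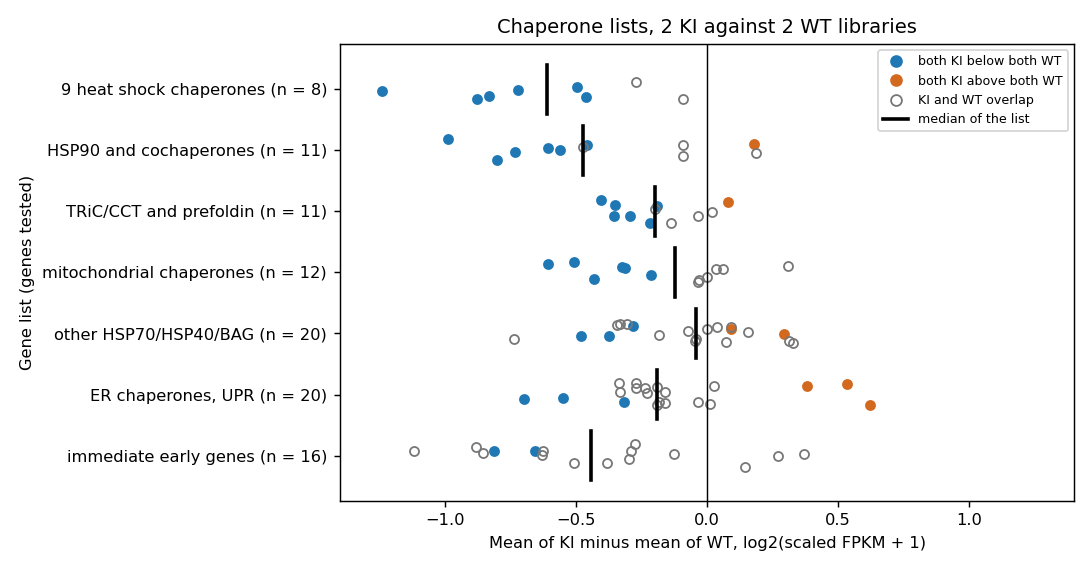
Mean of the 2 KI libraries minus mean of the 2 WT libraries, in log2(scaled FPKM + 1), for each tested gene of the chaperone lists (points) and the median of each list (black bars). Filled blue points have both KI libraries below both WT libraries, as 6 heat shock chaperones and 6 of 11 HSP90 genes do; filled orange points have them above, and open points overlap.

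The medians of the other chaperone lists lay nearer to 0 than that of the HSP90 list. In the cytosolic chaperonin TRiC/CCT and prefoldin list, 6 of 11 genes were below, as in the HSP90 list, and 1 (Tcp1) above, with a median of -0.20. Cct5, a subunit of the ring, was at 98.5 and 131.5 in WT at 21 days and 6 weeks, 125.4 in KO, and 79.0 and 93.4 in KI. These counts were 4 and 0 with FPKM as deposited. Among 12 other mitochondrial chaperones and proteases, 6 were below and 0 above, with a median of -0.12, and 4 were below with FPKM as deposited. Yme1l1, the gene of widest range in this list, was at 30.2, 17.7, 13.5, 24.5 and 34.1 in the same order, with KI not below WT at 6 weeks. Hscb, which serves iron-sulfur cluster assembly, was at 13.6, 23.3, 20.8, 13.5 and 12.5, below both WT libraries in KI. Of 20 other HSP70, HSP40 and BAG genes 3 were below and 2 above (median -0.04), and of 20 endoplasmic reticulum chaperone and unfolded protein response genes 3 were below and 3 above (median -0.19), shares near the 16.8% of all genes. The endoplasmic reticulum gene of widest range, Dnajb9, was at 59.0, 25.2, 13.2, 51.4 and 17.9, with KI replicate 1 between the WT libraries. Manf, next in range, was at 34.0, 73.5, 65.6, 32.1 and 29.0, below both WT libraries in KI. Small heat shock proteins were mostly under the filter, with 2 of 6 tested, 1 below and 1 above.

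Among the heat shock factors themselves, Hsf1 was at 15.2 and 14.6 in WT at 21 days and 6 weeks, 11.2 in KO, and 14.3 and 10.4 in KI. Hsf2 was at 4.21, 3.13, 1.90, 5.56 and 3.95. Both KI libraries of Hsf1 lay below both WT libraries, replicate 1 by little, those of Hsf2 overlapped WT at 21 days, Hsf4 was under 1 in every library, and Hsf5 was at 0.0527 or less.

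The genes whose pattern was most like the median pattern of the 9 members were chosen by distance between centred log2 values over the 5 libraries. Among 5481 other genes at a mean of 10 or more, the nearest 5 were Egr1 (distance 0.18), Hist1h2ap (0.19), Hsp90ab1 (0.20), Nsg2 (0.20) and Rps15a (0.23). Egr1, a transcription factor induced by antigen receptor signals, was at 43.5 and 44.0 in WT at 21 days and 6 weeks, 36.0 in KO, and 29.6 and 25.3 in KI. It was low in both KI libraries. Nsg2 was at 97.8, 95.0, 71.0, 66.9 and 55.9. Of the members, Hsp90aa1 and Hspa8 (0.26 each) and Hspe1 (0.28) were nearest to their own median, whereas Dnaja1 and Hsph1 (1.15 each), Hspa1a (1.25) and Hspa1b (1.87) were farthest, so the median describes the abundant HSP70, HSP90 and HSP10 genes and not the inducible HSP70 pair.

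**Figure D4:**
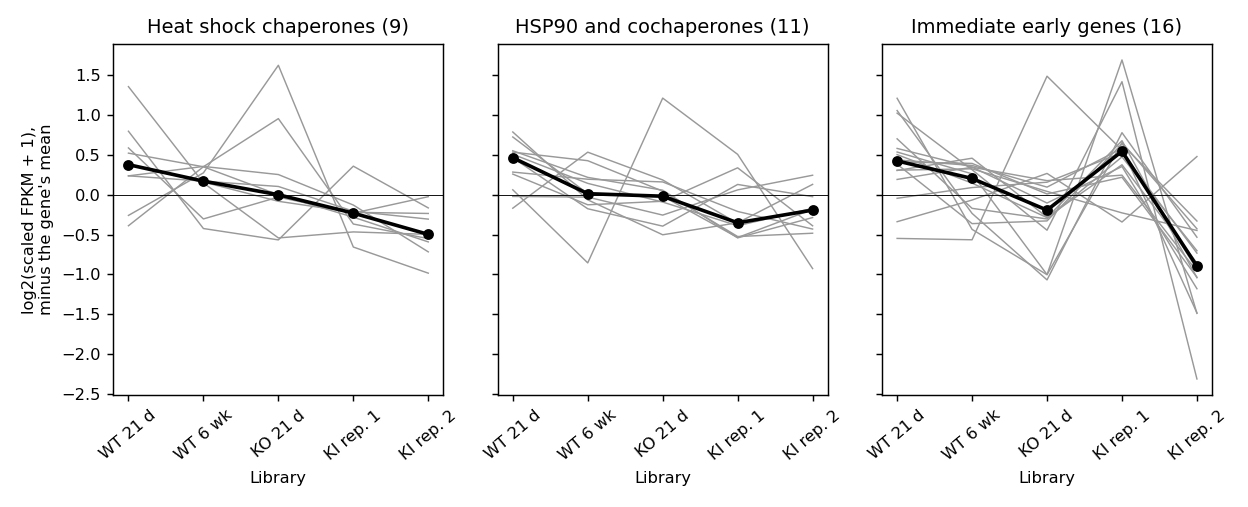
Values of log2(scaled FPKM + 1), minus the gene's own mean, for the 9 heat shock chaperones, 11 HSP90 genes and 16 immediate early genes in each library; grey lines join the values of a gene, the black line is the list's median, and the libraries have no order along the axis. The black medians of the chaperones and of the HSP90 genes are low in both KI libraries, while that of the immediate early genes is high in KI replicate 1 and low in KI replicate 2, and single genes depart from them.

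Genes that respond within minutes to stimulation or cell handling stood apart between the KI replicates. Over 16 immediate early genes the median difference from WT at 6 weeks was 0.49 in KI replicate 1 and -1.01 in KI replicate 2, whereas over the 8 tested chaperones it was -0.43 and -0.56. Against WT at 21 days the contrast was smaller in replicate 1. The immediate early median was then 0.06 and -1.43, and the chaperone median was -0.52 and -0.84. With both WT libraries as the control and the KI libraries averaged, the immediate early median was also negative, at -0.44, beside -0.61 for the tested chaperones. Of the 16 immediate early genes 2 had both KI libraries below both WT libraries and 0 had them above. The AP-1 gene Fosb was at 144, 87.9 and 51.5 in WT at 21 days, WT at 6 weeks and KO, and at 190.4 and 13.3 in KI. The chaperone median was thus below WT at 6 weeks in both KI replicates, although Dnaja1 and Hspd1 were above it in both, while the immediate early median lay on opposite sides of it, although 6 of its 16 genes, Egr1 among them, kept to one side.

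Markers of other cells also differed between libraries. The summed level of the plasmacytoid dendritic cell markers was 43.0 and 101 in WT at 21 days and 6 weeks, 38.7 in KO, and 20.2 and 28.0 in KI. In KI, 5 of 5 tested markers were below both WT libraries. Siglech and Spib passed the filter through WT at 6 weeks, where they were at 16.8 and 7.50. In WT at 21 days they were at 0.294 and 0.862, and in KI replicate 1 Siglech was at 0. Most of each sum was Bst2, at 31.9, 65.8, 32.7, 18.4 and 26.1 in the same order. B cell markers summed to 16.3, 21.7, 6.38, 3.89 and 2.96 in the same order, with 3 of 3 tested below. Of these, Cd79a and Ms4a1 were under 1 in both KI libraries and passed the filter through their WT values. The plasmacytoid dendritic cell and B cell sums were highest in WT at 6 weeks and lowest in KI. Myeloid markers summed to 37.5, 144, 60.6, 51.4 and 31.4 (1 of 6 below), and NK and CD8 T cell markers to 30.6, 48.6, 101, 41.1 and 43.6 (3 of 4 below, 1 above). The gene above was Nkg7, which made up most of each NK and CD8 T cell sum, at 19.4, 29.1, 73.8, 33.3 and 36.2. Cd8a, among those below, was under 1 in both KI libraries and passed the filter through its WT and KO values. Of the erythroid markers 0 of 2 tested were below, and Hba-a1 was at 0 in KO. The B cell and plasmacytoid dendritic cell sums were thus lowest in the same libraries as Hspa8, Hspa1b, Dnajb1, Hsp90aa1 and Hspe1, and their part in the chaperone differences was not tested. In these bulk samples, fewer cells of a type and less RNA per cell cannot be told apart.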

How the data were processed

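RNA of 5 libraries of sorted Treg cells was sequenced. The deposited values are gene-level FPKM with a lower and an upper bound, per the file headers. The authors' tools were Cufflinks 2.2.1, HISAT2 2.1.0 and CASAVA, with build GRCm38, per the submitters' processing notes; for annotation release and strand setting the sources used here say nothing. Each library was scaled by a median of ratios (9874 genes at FPKM of 1 or more in every library; 0.876 for WT at 21 days, 1.15 for WT at 6 weeks, 1.15 for KO, 0.868 and 1.01 for KI). The 11296 genes with a mean of at least 1 were compared on log2(scaled FPKM + 1), a scale that understates changes of low genes. The test was limma 3.58.1 with trend (R 4.3.3, Python 3.11.15), two-sided, with Benjamini-Hochberg adjustment over all tested genes and a threshold of 0.05. It was tested on simulated data. KO and the WT ages have 1 library a side and were described by size, with a fold limit of 2. Depth came from the width of the bounds, taken as 2 standard errors to each side.

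The members and lists were chosen with earlier results of these data known. All members were named, with at most the 4 genes of widest range in each list, all heat shock factors and the 5 genes nearest the members' median; the genes below or above both WT libraries in the HSP90 and TRiC lists, and the marker genes given, were named outside that rule, after their values were seen. Motifs were searched in RefSeq windows of 300 bases. Alternatives were a pseudocount of 0.1, other scalings and filters, and leaving out each KI library; the comparison of KI with both WT libraries was added after the data were seen.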

Additional observations from a re-analysis of the deposited data

How the results depend on the processing

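No paired analysis was possible because the labels name no pairs of libraries and only KI has more than 1 library. Across comparisons and settings, 209 of 215 values of single members kept their direction, and no member with a limma test was called in any setting. The 6 that turned were Hspd1 in KI against WT at 6 weeks (-0.11), Hspa8 in KO against WT at 21 days (0.25), and Hsp90aa1 (0.22), Hspa8 (0.32) and Hspe1 (0.17) in WT at 6 weeks against WT at 21 days, each with FPKM as deposited, and Hspa1a in KI against WT at 21 days without KI replicate 2 (-0.07 with both, -0.162 to 0.0216 with either left out). FPKM as deposited moved the median of all genes by -0.26 in KI against WT at 6 weeks and by 0.35 in KO and in WT at 6 weeks against WT at 21 days. With it the members' medians went from -0.53 to -0.82 in KI against WT at 6 weeks, from -0.49 to -0.11 in KO against WT at 21 days, and from -0.19 to 0.19 between the WT libraries. It also moved the genes past 2-fold from 340 higher and 316 lower to 211 and 545 in KI against WT at 6 weeks, from 693 and 920 to 1526 and 483 in KO against WT at 21 days, and from 382 and 585 to 997 and 330 between the WT libraries. With no filter the median in KI against WT at 6 weeks was -0.63, and leaving out each KI library gave -0.56 to -0.43. A pseudocount of 0.1 raised the genes past 2-fold from 656 to 1055 (KI against WT at 6 weeks), 967 to 1498 (between the WT libraries), 134 to 275 (KI against WT at 21 days) and 632 to 1072 (KO against WT at 6 weeks). With 1 KI library the counts for KI were 1260 to 1492 and 435 to 649. For KI against WT at 6 weeks limma called 1 gene, and 50 with a pseudocount of 0.1, 22 with a mean of at least 10, 0 with upper-quartile scaling and 0 with no filter. For KI against WT at 21 days it called 0, then 26 with a pseudocount of 0.1 and 10 with a mean of at least 10, and for KI against both WT libraries 1, or 0 with no filter. None of these calls was a member. Over these scalings, filters and pseudocounts the members' adjusted p was 0.289 to 0.889 against WT at 6 weeks, 0.253 to 1 against WT at 21 days and 0.856 to 1 against both. The cause of these changes was not tested. Groups of 1 or 2 libraries limit every comparison, the lower depth of WT at 6 weeks and KO limits those that use these libraries, and the bounds carry no spread between animals.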
